A study of Homo sapiens with 16 samples.

Results

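The sites described here are the distal CTCF sites that were detected in a single G12V library. They were selected on peak presence: peaks of the 4 CTCF lists were merged into sites wherever they shared 1 bp or more, and a site was kept when exactly 1 of the G12V lists and neither MCF10A list had a peak in it and when it did not touch a promoter. A promoter was taken as the stretch that begins 1000 bp before the start of a protein-coding transcript and ends 500 bp inside it. This left 7013 single-library sites out of 29064 CTCF sites in all and out of 25911 without a promoter overlap, or 27.1% of the distal sites. G12V replicate 2 supplied 6821 of them and G12V replicate 1 supplied 192. The same rule turned around, 1 MCF10A list and neither G12V list, gave 901 sites, or 3.48% of the distal sites, of which 846 came from MCF10A replicate 2 and 55 from MCF10A replicate 1. Peak presence and every strength value of a CTCF peak chose these sites and are given below without a test.

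The study mapped CTCF by ChIP-seq in untreated parental MCF10A cells, an established human mammary epithelial line that does not form tumours, and in MCF10A cells carrying G12V HRas, with 2 libraries per cell type. The G12V cells had received a lentiviral HRAS overexpression vector with hygromycin resistance together with a GFP vector, and were selected with hygromycin. They therefore model forced expression of the oncogene; the labels call the other cells parental. The p53 libraries used for 1 comparison came from both cell types after Nutlin, a drug that stabilises p53. According to the study's methods the replicates of each cell type were biological.

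CTCF is a zinc-finger protein that reads a long, directional DNA motif. Together with the cohesin ring it anchors chromatin loops and marks borders between domains, and many of its strong sites are occupied in nearly every cell type. Weaker sites, often with a poorer motif, differ more between cell types.

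The sequences under the strongest single-library sites show what the motif search read. Shown is the 150 bp window around the summit, in hg19 and on the plus strand. The sites came from the strongest 12 of G12V replicate 2 and the strongest 8 of G12V replicate 1. Of these, 9 carried a CTCF motif, and windows are given for 5 of the 9, picked by rank. For each library 1 site without a motif is also shown. The strongest site of all, in CSMD1, carried a motif and is not among the windows printed. Capitals mark the motif, the 12-letter CTCF consensus with at most 1 mismatch on either strand. Of all distal sites, 54.1% held such a match in this window, and of windows placed 2000 bp to either side of the single-library summits, 1.03% did. The first site lies at chr9:1018217-1018366, 28455 bp from a start of DMRT3, which encodes a DM-domain transcription factor, and its match on the plus strand had 1 mismatch.
DMRT3: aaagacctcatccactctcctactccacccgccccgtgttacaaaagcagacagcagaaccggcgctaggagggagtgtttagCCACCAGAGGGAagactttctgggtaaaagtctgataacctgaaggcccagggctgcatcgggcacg
The next is at chr19:28957167-28957316, with UQCRFS1, which encodes a subunit of respiratory complex III, as the nearest gene at 746816 bp. It also had 1 mismatch.
UQCRFS1: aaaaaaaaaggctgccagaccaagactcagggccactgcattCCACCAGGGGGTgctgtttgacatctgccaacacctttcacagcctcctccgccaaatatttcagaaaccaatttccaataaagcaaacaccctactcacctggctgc
The window at chr2:120048574-120048723, 67220 bp from a start of the metalloreductase gene STEAP3, held the motif on the minus strand without a mismatch.
STEAP3: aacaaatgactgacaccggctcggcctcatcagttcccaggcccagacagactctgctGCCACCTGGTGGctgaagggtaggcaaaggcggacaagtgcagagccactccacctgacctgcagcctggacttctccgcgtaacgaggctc
The 2 sites that follow came from G12V replicate 1. They lie at chr22:20273395-20273544, near RTN4R, a receptor for inhibitors of neurite growth, and at chr16:49387013-49387162, near C16orf78, and each match had 1 mismatch.
RTN4R: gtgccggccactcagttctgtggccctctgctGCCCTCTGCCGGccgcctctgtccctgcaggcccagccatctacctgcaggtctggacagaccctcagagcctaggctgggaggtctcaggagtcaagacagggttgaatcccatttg
C16orf78: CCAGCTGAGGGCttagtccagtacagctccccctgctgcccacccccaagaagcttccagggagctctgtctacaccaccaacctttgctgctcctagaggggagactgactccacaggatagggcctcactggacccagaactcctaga
In the RTN4R window the motif sits on the minus strand, and in the C16orf78 window it lies at the very edge, 69 bp from the summit. The last 2 windows held no motif and their best match had 2 mismatches. By −log10 q, 1 is the second strongest site of G12V replicate 2, at chr2:637069-637218 near TMEM18. The other is the strongest of G12V replicate 1 by the same measure, at chr18:109387-109536 near the deubiquitinase gene USP14.
TMEM18: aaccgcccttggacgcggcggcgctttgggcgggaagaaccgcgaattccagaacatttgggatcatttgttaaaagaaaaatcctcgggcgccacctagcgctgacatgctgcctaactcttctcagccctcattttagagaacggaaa
USP14: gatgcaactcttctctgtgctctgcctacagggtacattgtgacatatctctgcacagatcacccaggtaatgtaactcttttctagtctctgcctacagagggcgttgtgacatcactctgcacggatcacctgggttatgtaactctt

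The lists differed in length and in how many reads stood under a typical summit. They held 11346 and 20136 peaks in MCF10A replicates 1 and 2 and 12004 and 27678 peaks in G12V replicates 1 and 2. In the same order, the values in the lists imply sequencing depths of 18.6, 11.5, 13.6 and 11.4 M reads (1 M is 1e6 reads), so the longest list came from the library with the fewest reads. At the 6920 distal sites detected in all 4 libraries, called shared sites below, the median number of reads at the summit was 30, 36, 21 and 48. Per M reads this made 1.61 in MCF10A replicate 1, 3.13 in MCF10A replicate 2, 1.54 in G12V replicate 1 and 4.21 in G12V replicate 2. The replicate 2 libraries of both cell types thus stood above the replicate 1 libraries. Single-library sites made up 24.6% of the G12V replicate 2 list, 1.60% of the G12V replicate 1 list, 4.20% of the MCF10A replicate 2 list and 0.485% of the MCF10A replicate 1 list. The order of these shares within each cell type followed the reads per M at shared sites, and the part of this difference in the count was not tested. With every list reduced to its strongest 11346 peaks, 2345 single-library G12V sites were found, 1442 of them in replicate 1 and 903 in replicate 2, beside 1719 single-library MCF10A sites. Without G12V replicate 2 there were 1105, and without MCF10A replicate 2 there were 12038. Sites with a peak in the left-out list also count there, so these are no longer single-library sites of all 4 lists. The single-library MCF10A class went from 901 to 6082 without G12V replicate 2 in the same way. This limit holds for every result below that leaves out a CTCF library.

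Most single-library sites were among the weakest peaks of their library. Enrichment is given as the fold of the peak caller. This is the scaled reads at the summit over the local background, with a constant added to each. Its median was 6.84 at the single-library sites, with 10th and 90th percentiles of 4.70 and 10.7, against 8.84 at the 906 distal sites of both G12V libraries without MCF10A and 15.5 at the shared sites. In reads at the summit the median was 18 for those of G12V replicate 2, 13 for those of G12V replicate 1, 25 for the sites of both G12V libraries and 47 for the shared sites. Single-library MCF10A sites had a median of 15 reads and a fold of 6.003. Peaks were narrow as well, with a median width of 279 bp against 420 bp at shared sites. The box plot of reads shows how far the classes lie apart: the 90th percentile of the G12V replicate 2 sites was 28 reads, below the 10th percentile of the shared sites at 33.

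**Figure D1:**
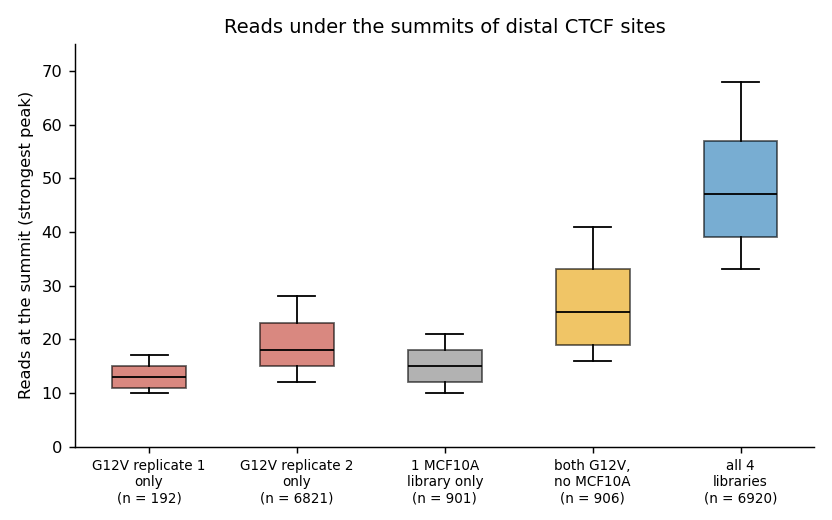
Reads at the summit of the strongest peak (y axis) for 5 classes of distal CTCF sites (x axis, with the number of sites). Boxes span the quartiles with the median as a line, and whiskers reach the 10th and 90th percentiles. The single-library classes have medians of 13, 18 and 15 reads, and the shared sites have a median of 47.

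Ranking the G12V replicate 2 list by its −log10 q and dividing it into 10 deciles of about equal size placed 4868 of its 6821 single-library sites, or 71.4%, in the weakest 3 deciles and 72 in the strongest 3. In the strongest decile 4 of 2768 peaks were single-library sites, or 0.145%, and in the weakest decile 1850 of 2731, or 67.7%. The share of peaks also present in MCF10A replicate 2 went from 98.99% to 20.0% over the same range. The share also present in G12V replicate 1 went from 88.4% to 7.07%, and that in MCF10A replicate 1 from 89.5% to 4.03%. In every decile the peaks of G12V replicate 2 were thus found more often in the MCF10A replicate 2 list than in the list of the other G12V library. The former list is also the longer, with 20136 peaks against 12004, and the part of list length was not tested. In the G12V replicate 1 list 158 of the 192 single-library sites were in the weakest 3 deciles and 1 was in the strongest 3.

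**Figure D2:**
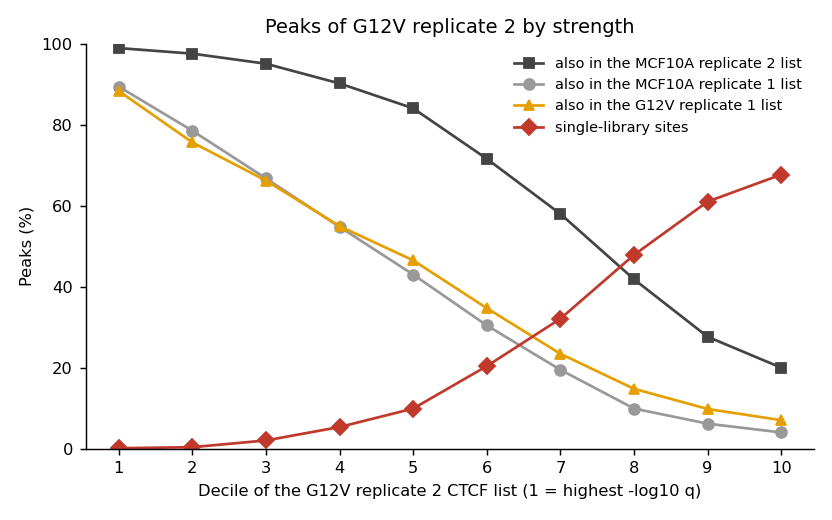
Share of G12V replicate 2 CTCF peaks (y axis, %) in each decile of the list, from the highest to the lowest −log10 q (x axis), that were also in each of the other lists or were single-library sites. Single-library sites go from 0.145% in the strongest decile to 67.7% in the weakest, while the share also in the MCF10A replicate 2 list goes from 98.99% to 20.0%.

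The reads at each site were also put on the scale of the other libraries with the ratio of the medians at shared sites. For the sites of G12V replicate 2 this gave a median of 7.88 reads in G12V replicate 1, 13.5 in MCF10A replicate 2 and 11.3 in MCF10A replicate 1. The weakest decile of the peaks called there had fewer than 14, 16 and 20 reads, and the scaled value was below that for 94.8%, 69.2% and 94.8% of these sites. Called peaks went down to 8, 8 and 11 reads in the same libraries. The scaled median was above that lowest value in both MCF10A libraries and below it in G12V replicate 1. The sites of G12V replicate 1 were scaled in the same way. In G12V replicate 2 they had a median of 29.7 reads, and none of 191 fell below the 15 reads that bound the weakest decile of that list. None could, since peaks called in G12V replicate 1 had at least 8 reads and the ratio was 2.29. Scaled to MCF10A replicate 2 the median of these sites was 22.3 reads, and 6 of 191 were below 16. Scaled to MCF10A replicate 1 it was 18.6 reads, and 117 of 191 were below 20. No peak was called at these sites in any of those libraries. Read counts could not be solved for 5 sites of G12V replicate 2 and 1 of G12V replicate 1.

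The edges of the selection were as follows. The single-library site closest to a peak of another list, near the kinase gene PKDCC, lay 3 bp from it, and 15 sites, or 0.214%, were within 200 bp of such a peak. A site near CCDC188 was left out because its peaks in both G12V lists shared 2 bp. The weakest sites kept had a −log10 q of 1.33 near WDFY3 in G12V replicate 1 and of 1.68 near NRDE2 in G12V replicate 2. Of 7601 sites that met the rule on the lists, 588 were left out for a promoter. The one farthest from a start, at 1214 bp from one of ADCY7, just touched the promoter, and the site kept nearest to a start, 596 bp from one of TRIM60, just missed it.

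The 12 strongest single-library sites of G12V replicate 2 ranked between 2243 and 4907 of 27678 in that list. The strongest lay in an intron of CSMD1, a gene for a large membrane protein that regulates complement, with 48 reads at the summit over a background of 1.00, a fold of 22.98 and a −log10 q of 52.3. It carried a motif with 1 mismatch, and the nearest peak in the other lists was 37227 bp away. The site near TMEM18 had 46 reads and a fold of 22.05, and the site near DMRT3 had 50 reads and a fold of 20.5 with peaks of the other 3 lists 8607 to 8723 bp away. An intron of NTM, which encodes a neural cell adhesion molecule, held 52 reads at a fold of 19.4. The site in an intron of PDE1A, a cyclic nucleotide phosphodiesterase, was 1088 bp from a transcript start and had 42 reads at a fold of 21.3. No CTCF motif was found in the NTM and PDE1A windows, whose best match had 3 mismatches.

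The site nearest UQCRFS1 had 53 reads at a fold of 16.8, with the nearest peak of another list 167259 bp away, in G12V replicate 1. On the X chromosome, the sites near HEPH, a copper-containing ferroxidase of the gut, and ITM2A had folds of 20.6 and 19.7, and the nearest peak of another list was 561961 bp from the ITM2A site. The remaining sites were near COX7A2 with a fold of 19.5, PITRM1 with 17.0, MATN2 with 17.7 and STEAP3 with 15.6. Each of the 12 sites had 41 or more reads, close to the median of shared sites, and 4 of them, at CSMD1, DMRT3, UQCRFS1 and STEAP3, carried a motif.

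The 8 strongest sites of G12V replicate 1 ranked between 3565 and 5672 of 12004 in that list, in a library with fewer reads at shared summits. The first, near USP14, had the highest −log10 q of the 192 sites of this library, 12.7, but the lowest fold, 2.67. Its reads and background could not be solved. The next was near RTN4R with 17 reads and a fold of 8.92. The C16orf78 site had 18 reads and a fold of 8.49, with peaks of the other 3 lists 2076 to 2202 bp away. Sites near CMAS, in an intron of ST8SIA1, and near SLITRK1, SLC7A11 and CDK20 had the same values, 16 reads and a fold of 8.43. The eighth, near ZNF248, had 17 reads and a fold of 8.11. Of these 8 sites, 5 carried a motif.

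A CTCF motif was found at 2684 of 7013 single-library sites, or 38.3% (95% interval 37.1 to 39.4), against 1.03% of windows 2000 bp away. The share was 38.5% in G12V replicate 2 and 29.7% in G12V replicate 1, a difference of −8.83 points between replicate 1 and replicate 2 (Fisher's exact test with sites as units, adjusted p = 0.0185). It was 46.0% at sites of both G12V libraries, so that single-library sites differed from them by −7.75 points (exact test, adjusted p = 2.11e-05). Against the 70.7% of shared sites they differed by −32.4 points (exact test, adjusted p below 1e-299, the smallest value computed). Single-library MCF10A sites had a motif in 27.5%, and the G12V sites stood 10.7 points above that (exact test, adjusted p = 8.14e-10). These tests were two-sided, were adjusted over 10 share tests and hold no replicate error. The last difference turned to −2.57 points (exact test, adjusted p = 0.176) with lists of equal length. Without G12V replicate 2, where both classes also held sites of that list, it was −7.76 points (exact test, adjusted p = 7.91e-06). Counting only motifs without a mismatch, 9.62% of single-library sites had one against 28.1% of shared sites, and the differences from the sites of both G12V libraries and from the single-library MCF10A sites were −1.85 and 0.857 points (exact test, adjusted p = 0.142 and 0.542). The difference between the G12V libraries was then −2.40 points (exact test, adjusted p = 0.458).

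The comparison with shared sites sets weak peaks against strong ones, so the motif share was also read within deciles of the G12V replicate 2 list. In the 8 deciles with at least 20 single-library sites their motif share was lower than that of the other distal peaks of the same decile, by 4.51 to 14.3 points, and the 95% intervals were apart in 6 of the 8. In the weakest decile the shares were 30.6% of 1850 single-library sites and 40.03% of 602 other peaks. In the sixth decile they were 47.5% of 579 and 57.0% of 1991. The share of sites with a motif among the single-library sites themselves was highest in the third decile, at 61.4% of 57. Having a motif went with slightly more reads: in G12V replicate 2 the median fold was 7.13 at 2627 single-library sites with one and 6.59 at 4194 without.

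**Figure D3:**
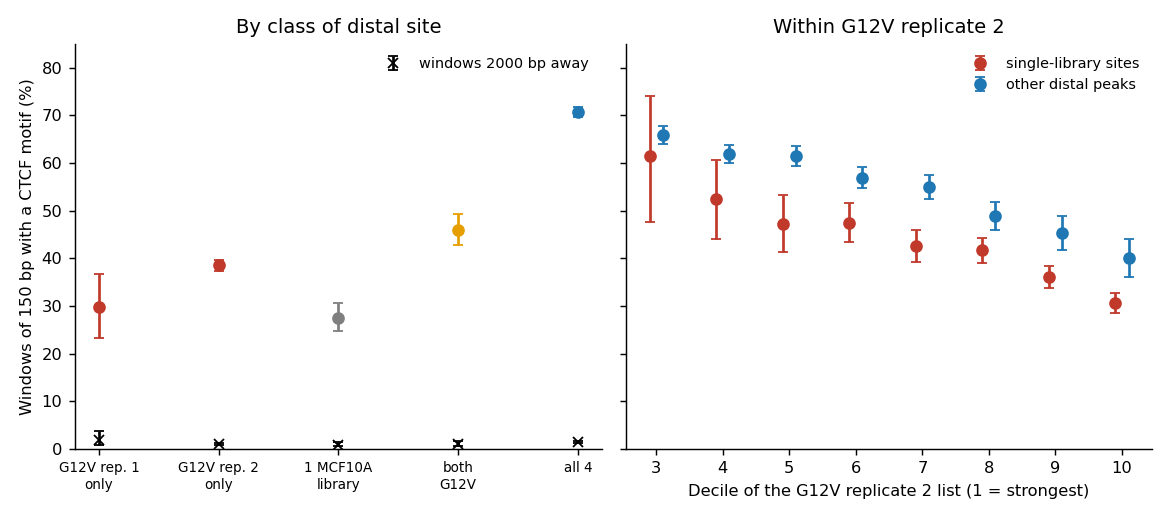
Share of 150 bp windows with a CTCF motif (y axis, %) by class of distal site (left) and by decile of the G12V replicate 2 list (right), with 95% binomial intervals and, as crosses, the windows 2000 bp away. Single-library sites lie at 29.7% and 38.5% by library, below the 70.7% of shared sites, and below the other distal peaks in each decile plotted.

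The 12-letter matches were not counted on every chromosome, so their counts are given without shares. Among the single-library sites counted, the most frequent match was CCAGCAGAGGGC in 70, followed by CCACCAGAGGGC in 67 and CCAGCAGGTGGC in 65. Among the shared sites counted, CCACCAGGGGGC led with 256 and CCAGCAGAGGGC came next with 237. Among single-library matches with 1 mismatch, 22.8% had it at the 12th letter of the consensus and 0.846% at the 2nd. At shared sites the 3rd letter was the most frequent place, with 23.3%, against 13.6% at single-library sites. Orientation was even, with 51.1% of the single-library motifs on the plus strand. Among sites with a motif, its centre was within 25 bp of the summit in 55.1% of single-library sites and 67.6% of shared sites. The windows of single-library sites had a median GC content of 49.3% and 2 CpG dinucleotides, against 56.7% and 4 at shared sites.

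AP-1, the FOS and JUN dimer that acts downstream of RAS signalling, binds TGACTCA or TGAGTCA, which are each other's reverse complement. Either was present in 192 single-library windows, or 2.74% (95% interval 2.37 to 3.15), and in 1.46% of shared windows, 1.28 points fewer (exact test, adjusted p = 4.15e-07). Windows 2000 bp beside the single-library summits held it in 2.30%, close to the share at the summits, and those beside the shared summits in 2.38%. The share of all distal sites was 2.33%. Single-library MCF10A sites had 3.11%, and the difference of −0.37 points did not pass the test (exact test, adjusted p = 0.576). Without G12V replicate 2 the difference from shared sites was −0.197 points (exact test, adjusted p = 0.693), and that from single-library MCF10A sites was −1.63 points and passed (exact test, adjusted p = 0.00341).

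Distances to genes were longer at single-library sites than at shared sites, which was described and not tested. The median distance to the nearest protein-coding transcript start was 35846 bp against 21296 bp, and 26.8% of single-library sites (95% interval 25.8 to 27.9) were more than 100 kb from any start, against 14.4% of shared sites (13.6 to 15.2). Within 10 kb of a start were 22.7% and 30.4%. By annotation of protein-coding genes alone, 51.3% of the summits lay outside a gene, 44.2% in introns, 2.04% in coding exons and 2.51% in untranslated exons. Inside a protein-coding gene were 48.7% of single-library sites and 46.3% of shared sites, a difference of 2.39 points (exact test, adjusted p = 0.00810) that was 1.33 points with promoters of gene starts alone (adjusted p = 0.138). Single-library MCF10A sites, with 48.3%, did not pass the test against them (exact test, adjusted p = 0.832).

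Distances from single-library sites to the shared sites were described without a test, and no expected distance was computed. The nearest site of all 4 lists, promoters included, was a median of 122485 bp away, and 4.73% of single-library sites had one within 5 kb. The median was 62040 bp for the sites of G12V replicate 1, 124516 bp for those of G12V replicate 2, 85131 bp for the sites of both G12V libraries and 125413 bp for single-library MCF10A sites. The nearest CTCF site of any kind was a median of 27256 bp away. The curves of distance for G12V replicate 2 and for the single-library MCF10A sites run side by side, and those of G12V replicate 1 lie at shorter distances.

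**Figure D4:**
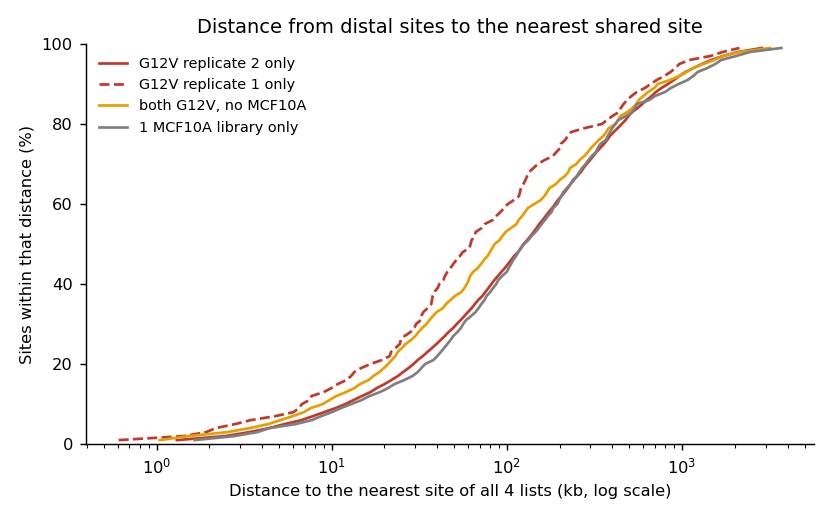
Cumulative share of sites (y axis, %) within a given distance of the nearest CTCF site of all 4 lists (x axis, kb, log scale), for 4 classes of distal site. The medians are 62040 bp for G12V replicate 1, 124516 bp for G12V replicate 2, 85131 bp for both G12V libraries and 125413 bp for single-library MCF10A sites.

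Chromosomes shared the 2 classes unevenly. The share of single-library sites differed from that of shared sites on 12 of 23 chromosomes (52.2%, Fisher's exact test per chromosome, adjusted over the 23), with a higher share on 6 and a lower one on 6. Chromosome X held 337 single-library sites, or 4.81%, against 2.36% of shared sites (exact test, adjusted p = 6.25e-14), and chromosome 4 held the same 337 against 2.37% (adjusted p = 6.42e-14). Chromosomes 2, 3, 13 and 18 were the others with a higher share. Chromosome 1 held 9.18% against 13.6% (exact test, adjusted p = 4.03e-15), chromosome 19 held 2.74% against 4.97% (adjusted p = 3.64e-11), and chromosomes 11, 17, 20 and 22 were lower too. Single-library MCF10A sites had 3.44% on the X chromosome and 5.22% on chromosome 4, and of the 192 sites of G12V replicate 1, 1 was on the X chromosome. Chromosomes 1, 17 and 19 held 29, 13 and 10 of these 192, or 15.1%, 6.77% and 5.21%, above the shares of shared sites. Chromosomes 11, 20 and 22 held 4, 6 and 4 of them, below the shares of shared sites. The count of chromosomes past the test was 5 with lists of equal length and 1 without G12V replicate 2.

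**Figure D5:**
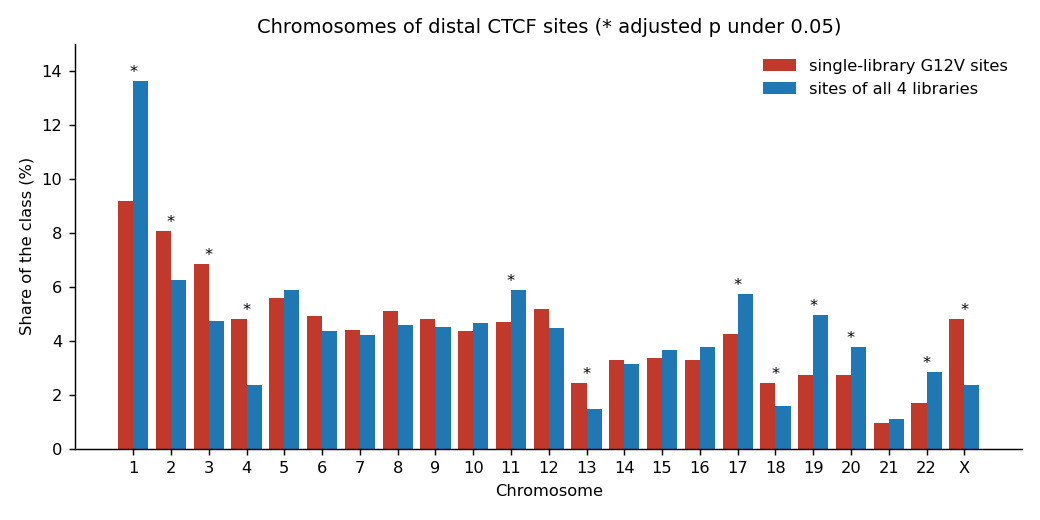
Share of each class (y axis, %) on chromosomes 1 to 22 and X (x axis) for single-library G12V sites and shared sites, with an asterisk where the adjusted p was under 0.05. Single-library sites have the larger share on chromosomes 2, 3, 4, 13, 18 and X and the smaller one on 1, 11, 17, 19, 20 and 22.

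Cut into 1 Mb windows, the genome had 2793 windows with a CTCF site and 2433 with a single-library site, at a median of 2 per window. The windows named here were picked for their counts, which therefore carry no test. The fullest lay on chromosome 9 between 21000001 and 22000000 bp and covers the type I interferon genes, which encode secreted antiviral proteins: 11 of its 13 CTCF sites were single-library, 10 from G12V replicate 2 and 1 from G12V replicate 1, and no site there was shared by all 4 lists. Their folds ran from 5.17 to 12.5, and 6 had a motif. The site near IFNA14 had the highest fold, 12.5 with 24 reads, and the site near IFNA5 held a motif without a mismatch at a fold of 6.59. A window on chromosome 14 over CTSG, GZMH, GZMB and STXBP6 had 10 of 14, and a window on chromosome 20 over PLCB4, LAMP5, PAK5 and ANKEF1 also had 10 of 14, all from G12V replicate 2.

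Peaks of p53 rarely fell on distal CTCF sites as a whole: 74 of 25911, or 0.286%, overlapped one. Overlap was called over the whole merged site. The strongest peaks were wider at shared sites, with a median of 420 bp against 279 bp at single-library sites. The part of width in the shares below was not tested. A p53 peak of any library overlapped 9 single-library sites, or 0.128% (95% interval 0.0587 to 0.243), and 28 shared sites, or 0.405%, a difference of −0.276 points (exact test, adjusted p = 0.00307). This call was lost without G12V p53 replicate 2 (−0.0582 points, exact test, adjusted p = 0.221), with p53 lists of equal length (−0.0873 points, adjusted p = 0.128), without G12V CTCF replicate 2, where the difference was as large (−0.313 points, adjusted p = 0.226), and with CTCF lists of equal length (−0.185 points, adjusted p = 0.415). Single-library MCF10A sites had 4 of 901, or 0.444%, and the difference did not pass the test (exact test, adjusted p = 0.0644). It passed with promoters of gene starts alone (adjusted p = 0.0424), without MCF10A p53 replicate 2 (adjusted p = 0.0489) and without G12V p53 replicate 2 (adjusted p = 0.0185, exact tests). By library the overlaps were 0 of 1718 peaks in MCF10A p53 replicate 1, 1 of 885 in MCF10A p53 replicate 2, 1 of 477 in G12V p53 replicate 1 and 8 of 2619 in G12V p53 replicate 2. The share of p53 peaks on a single-library site was 0.258% ± 0.0678 in G12V and 0.0565% ± 0.0799 in MCF10A (SD, n = 2 each; exact two-sided permutation test, p = 0.333, the smallest this design allows).

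All 9 came from CTCF G12V replicate 2, and their names were looked up after the overlap was seen. The site in an intron of FHL2, a LIM-domain cofactor, was the one met by both G12V p53 lists, with a p53 fold of 18.4 in replicate 1 and 26.3 in replicate 2 and a CTCF fold of 12.5. The summits lay 292 and 310 bp apart. The strongest p53 peak by fold was 32 bp from the CTCF summit near TNFAIP8L1, with a p53 fold of 34.6, and this CTCF site had a motif and a fold of 8.14. Others were near HFM1, RAB40C, MAP3K14, SMG9, ANXA1 and TSPAN6. At HFM1 both folds were low, 1.403 for CTCF and 1.65 for p53 in MCF10A replicate 2.

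Gene groups linked to RAS and to epithelial identity were looked up for single-library sites within 100 kb of a start. Of all 19748 protein-coding genes, 9704 had one (49.1%), so the counts below are read against that share. Genes of the AP-1 family had one in 5 of 12, the closest 11434 bp from FOSL1 with 27 reads and a fold of 8.74. Feedback regulators of RAS and MAPK signalling had one in 6 of 20. The closest lay in an intron of DUSP7, a phosphatase that switches off ERK, 819 bp from a start, with 25 reads and a fold of 4.88. Receptors and ligands of the EGF family had one in 8 of 15, resting on 7 sites. The closest lay 1634 bp from a start of the ligand EPGN, with 15 reads and a fold of 7.53. Regulators and markers of the epithelial to mesenchymal transition had one in 7 of 15, with TWIST2 the closest at 11914 bp.

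Basal keratin and adhesion genes had a site in 12 of 21, but these rest on 9 sites because neighbouring keratin genes share them. The closest lay in an intron of ITGB4, the hemidesmosome integrin, 1846 bp from a start with a fold of 6.86. The genes of CTCF, cohesin and their regulators had one in 5 of 16, with HDAC8, the SMC3 deacetylase, the closest at 1881 bp. Imprinted genes had one in 7 of 16, and the site 7115 bp from CDKN1C had 12 reads and a fold of 4.08. Clustered protocadherins had one in 16 of 53 genes and HOX genes in 11 of 39, but each of these counts rests on 2 sites, since neighbouring genes share them. The closest protocadherin site was 10995 bp from PCDHB15, with a fold of 3.77. The 8 sites named in these groups all came from G12V replicate 2, where they ranked between 16698 and 27581 of 27678.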

How the data were processed

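Per the study's methods, reads were mapped to hg19 by Bowtie, unique alignments only, and the authors ran MACS2 on every library separately, with an input as control and at a q-value of 5%. The deposited lists give for each peak a score derived from its q-value, a fold enrichment, the summit's −log10 p and −log10 q, and where the summit lies. The fold is a ratio of scaled summit reads to local background, with a constant added to each. Since the caller derives the fold and the p from the same summit reads and background, both were solved for 99.97% or more of the peaks of each list, and the depth followed from the lowest background for a mappable genome of 2.7 Gb. All solutions were in whole reads. These depths are inferred.

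Sites without a peak in a list were not detected there, and are not shown to be unbound. The motif and gene features were taken at the summit of the strongest peak of each site, with GENCODE release 44 on GRCh37. A p53 peak counted where it overlapped any part of the merged site by 1 bp or more. Two-sided Fisher's exact tests compared shares, with Benjamini-Hochberg adjustment over 10 tests or 23 chromosomes and a threshold of 0.05. The p53 libraries were compared with an exact permutation test over 6 assignments. Intervals are exact (Clopper-Pearson) and cover counting error alone. Named sites are the 12 and 8 with the highest −log10 q in G12V replicates 2 and 1, sequences were printed for those with and without a motif by a set number, and the closest site of each gene group is named, except for items not reported here. The sites and gene groups were chosen with earlier results of these data known. Tests and the recovery of reads were tested on simulated data. Python 3.11.15, scipy 1.17.1 and pysam 0.24.0 were used, and 19 alternatives were run.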

Additional observations from a re-analysis of the deposited data

How the results depend on the processing

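Of 13 results, the lower motif share of single-library sites than of shared sites kept its direction and its call under all 13 alternatives (−32.6 to −18.5 points). CTCF lists of equal length gave 2345 sites, 5 chromosomes past the test, and differences of −2.57 points in motif and 0.124 points in p53 peaks from single-library MCF10A sites, and of −0.185 points in p53 peaks from shared sites. Promoters of gene starts alone gave 1.33 points inside genes against shared sites, −0.211 against single-library MCF10A sites, and −0.379 points for p53 against the latter (exact test, adjusted p = 0.0424). Counting genes of every type gave −1.11 points against single-library MCF10A sites. A motif without mismatch gave −1.85 points against sites of both G12V libraries, 0.857 against single-library MCF10A sites, and −2.40 between the G12V libraries, none of which passed. With p53 lists of equal length the difference from shared sites was −0.0873 points. The cause of these changes was not tested.

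Leaving out 1 library at a time gave 1105 to 12038 sites, the lowest without G12V replicate 2 and the highest without MCF10A replicate 2, and 1 to 15 chromosomes. Against single-library MCF10A sites it gave −7.76 to 15.8 points for the CTCF motif, −1.63 to 2.76 for AP-1, −1.27 to 2.41 inside genes and −0.330 to 0.199 for p53 peaks. Against shared sites it gave −0.197 to 1.25 points for AP-1 and −0.313 to −0.0582 for p53 peaks. Most of these changes came without G12V replicate 2 or MCF10A replicate 2, the libraries with the most reads at shared summits. With a CTCF library left out, the classes also held sites that had a peak in that library. With the replicate number as a block, an alternative chosen after seeing the data, the p53 libraries differed by 0.210 and 0.192 points in the 2 pairs, 0.201 on average (exact sign-flip test, p = 0.5, the smallest 2 pairs allow). No paired analysis was possible because the other results are shares of merged sites and come from no fit over libraries.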

Other observations

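Between single-library sites of the same G12V library, width followed strength. In the strongest 3 deciles of the G12V replicate 2 list the median widths of 4, 11 and 57 single-library peaks were 395, 416 and 365 bp. Those of 2436, 2445 and 2403 other distal peaks were 436, 417 and 401 bp. In the weakest decile the median widths were 247 bp at single-library peaks and 268 bp at other distal peaks. The median GC content of single-library sites was 48.0% to 51.0% in the 10 deciles, with the 51.0% resting on 4 sites. At the other distal peaks of the same deciles it was 50.7% to 54.0%. Single-library sites had the lower median in all 8 deciles with at least 20 of them. The single-library sites of G12V replicate 1 had a median GC content of 54.0% against 48.7% at those of G12V replicate 2. Another 1 Mb window with 10 single-library sites lay on chromosome 1 between 6000001 and 7000000 bp, over HES2, HES3, ICMT and other genes, but it held 35 CTCF sites in all, 9 of them distal and shared by all 4 lists.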
